A study of Rattus norvegicus with 12 samples.

Results

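The genes described here encode proteins of the synaptic vesicle, the SNARE proteins that fuse membranes and their close regulators. They were taken from the table of expression values by gene symbol: the synaptotagmins, synapsins, SNAPs, syntaxins, syntaxin-binding proteins, VAMPs, complexins, SV2 glycoproteins, RIMs, Munc13 proteins, synaptophysin, synaptoporin, synaptogyrins, bassoon, piccolo and Doc2 proteins. This gave 67 of 10730 genes (0.624%), matched by symbol alone. By known function, 47 of them were counted as acting at or near the release site, or as relatives of such proteins, and 20 as SNAREs of other membranes. The first set divides into 11 proteins of the vesicle membrane, 13 calcium sensors and their relatives, 8 members of the fusion core, 8 active zone proteins and 7 syntaxin-binding or other proteins. Snap91, a clathrin adaptor of the endocytic pathway, was matched by its symbol only. It is counted among the 47, as are Stxbp2 and Stxbp3, whose proteins are used mainly outside neurons.

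At a synapse, vesicles filled with transmitter are tethered and primed at the active zone by the scaffolds RIM, Munc13, bassoon and piccolo. The vesicle SNARE synaptobrevin then zippers with the plasma membrane SNAREs syntaxin and SNAP25, under the control of complexin and other regulators. Calcium entering through voltage-gated channels binds synaptotagmin and triggers fusion. Silencing neurons for days is known to strengthen synapses on both sides of the cleft, a form of homeostatic plasticity.

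The RNA came from hippocampal neurons of male and female Sprague Dawley (CD) rat embryos at E18.5, grown in neuron-enriched culture. On day 1 in vitro the cultures were infected with lentivirus made from pLKO.1, either empty (control) or with a hairpin that knocks down Grin3a (knockdown), the gene of the NMDA receptor subunit GluN3A. All cultures received 1 µM tetrodotoxin (TTX), which blocks sodium channels and so silences action potentials, on day 5 for 48 h. The 4 groups were control in TTX (Ctrl_TTX), knockdown in TTX (KD_TTX), control 6 h after TTX was withdrawn (Ctrl_TTXwd) and knockdown 6 h after withdrawal (KD_TTXwd), with 3 libraries each. Every group had TTX. The labels describe the control virus as empty, while the headers of the deposited table mark its columns scr. The labels call the 3 libraries biological replicates without saying that each came from its own preparation of embryos, so a p-value measures the spread between these libraries.

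Levels are the authors' FPKM, fragments scaled by transcript length and by the size of the library, which allow comparison between genes as well as between libraries. The read number behind them is not given in the sources used here, so counting error is unknown. A log2 change below is a difference of group means of log2(FPKM + 1), which understates the change of genes with low values, and a gene is called at a limma adjusted p under 0.05 over the 10689 genes tested. All 67 members passed the filter of at least 1 FPKM in at least 3 libraries. Where the values of both groups of a culture follow each other, those in TTX come first. In bulk RNA, fewer cells of a type and less of a transcript per cell cannot be told apart.

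Several facts of the libraries bear on every result. Grin3a, the knockdown target, was at 18.6, 18.2 and 23.0 FPKM in Ctrl_TTX and 9.30, 6.01 and 4.77 in KD_TTX, then at 13.8, 19.8 and 4.88 in Ctrl_TTXwd and 5.22, 3.32 and 2.50 in KD_TTXwd. The library labelled Ctrl_TTXwd replicate 3 therefore lay among the knockdown libraries for Grin3a. It was also the lowest of all 12 libraries for 34 of the 67 members and the highest for 13. The library Ctrl_TTX replicate 1 stood apart as the highest of 12 for 20 members. It was not high throughout. For other members it was far below the rest of its group, as for Syp (157 FPKM against 313 and 323) and Rims4 (7.59 against 25.1 and 28.6). The summed FPKM of 12 microglial markers ranged from 204 to 605 in Ctrl_TTX, 177 to 632 in KD_TTX, 102 to 1770.0 in Ctrl_TTXwd, where replicate 3 was the highest, and 42.0 to 538 in KD_TTXwd. The summed FPKM of 10 glutamatergic neuron markers ranged from 1021 to 1071 in Ctrl_TTX, 702 to 845 in KD_TTX, 206 to 673 in Ctrl_TTXwd, where replicate 3 was the lowest, and 406 to 576 in KD_TTXwd. Astrocyte markers (9 of 10 in the table) summed to 3764 to 7209 FPKM in Ctrl_TTX, where replicate 1 was the highest, 3436 to 6100.0 in KD_TTX, 4282 to 7230.0 in Ctrl_TTXwd, where replicate 3 was the highest, and 2828 to 5102 in KD_TTXwd, and no marker in the table was at 0 in all 12 libraries. Results are therefore given with all libraries and again with the 2 libraries that stand apart left out, a setting chosen after the data were seen.

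The promoters of 6 members are shown because their transcripts carry the results below or because they hold a full cyclic AMP response element, the site of the activity-regulated factor CREB. Each runs from 250 bases before to 50 bases after the annotated start in the RefSeq annotation of GRCr8, written 5′ to 3′ on the strand of the gene. Capitals mark TGACG, the CRE half-site, and GGGCGG, the GC box, on either strand; the full CRE TGACGTCA holds 2 overlapping half-sites. The first 4 belong to genes that were lower after withdrawal in both control and knockdown cultures and had an entry. Cplx2 lies at chr17:10236704-10237003 on the minus strand, Rims1 at chr9:32692723-32693022 on the minus strand, Syt6 at chr2:193781226-193781525 on the plus strand and Syt9 at chr1:170687555-170687854 on the plus strand. Syn1 at chrX:3725495-3725794 and Vamp1 at chr4:159698644-159698943, both on the plus strand, hold the full CRE, starting 190 and 71 bases before the start.
Cplx2: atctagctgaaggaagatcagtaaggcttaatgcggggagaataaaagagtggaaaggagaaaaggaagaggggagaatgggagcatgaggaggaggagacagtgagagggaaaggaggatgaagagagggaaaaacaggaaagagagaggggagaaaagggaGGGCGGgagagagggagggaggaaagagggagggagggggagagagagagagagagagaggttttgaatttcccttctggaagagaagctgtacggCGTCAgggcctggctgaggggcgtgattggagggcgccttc
Rims1: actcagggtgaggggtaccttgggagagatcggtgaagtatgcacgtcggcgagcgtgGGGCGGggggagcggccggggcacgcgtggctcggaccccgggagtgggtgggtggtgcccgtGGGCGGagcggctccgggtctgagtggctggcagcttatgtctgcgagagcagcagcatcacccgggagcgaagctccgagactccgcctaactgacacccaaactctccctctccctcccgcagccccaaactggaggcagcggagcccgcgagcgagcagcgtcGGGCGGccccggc
Syt6: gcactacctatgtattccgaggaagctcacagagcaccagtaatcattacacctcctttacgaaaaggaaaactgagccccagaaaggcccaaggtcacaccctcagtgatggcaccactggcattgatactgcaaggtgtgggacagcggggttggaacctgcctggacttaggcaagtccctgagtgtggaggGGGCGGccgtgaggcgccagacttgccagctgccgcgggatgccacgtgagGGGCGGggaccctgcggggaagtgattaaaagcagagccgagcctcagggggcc
Syt9: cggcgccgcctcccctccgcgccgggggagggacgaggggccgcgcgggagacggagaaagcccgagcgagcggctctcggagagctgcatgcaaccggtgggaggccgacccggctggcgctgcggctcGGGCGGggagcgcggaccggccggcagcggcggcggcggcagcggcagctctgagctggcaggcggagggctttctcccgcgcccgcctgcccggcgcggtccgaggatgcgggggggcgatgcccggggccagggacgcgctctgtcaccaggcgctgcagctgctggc
Syn1: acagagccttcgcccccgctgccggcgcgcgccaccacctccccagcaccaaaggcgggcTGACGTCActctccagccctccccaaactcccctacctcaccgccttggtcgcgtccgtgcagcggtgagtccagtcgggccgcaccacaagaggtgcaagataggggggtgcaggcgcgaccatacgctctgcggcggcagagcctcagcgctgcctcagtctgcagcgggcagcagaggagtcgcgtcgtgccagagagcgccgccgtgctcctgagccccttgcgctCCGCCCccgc
Vamp1: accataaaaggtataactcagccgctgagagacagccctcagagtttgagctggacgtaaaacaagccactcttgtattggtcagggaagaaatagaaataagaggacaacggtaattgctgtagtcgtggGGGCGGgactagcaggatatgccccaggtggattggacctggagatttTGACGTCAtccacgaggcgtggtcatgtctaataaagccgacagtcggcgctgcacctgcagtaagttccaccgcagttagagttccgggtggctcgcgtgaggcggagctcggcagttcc

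An entry was found for 49 of the 67 members. The full CRE was in 2 of these 49 promoters (4.08%), Syn1 and Vamp1, against 1.83% of 33469 RefSeq promoters of the same length, and the half-site was in 14 (28.6%) against 21.2%. The GC box was in 35 (71.4%) against 33.1% of all promoters, and the letters TATAAA were in 3 (6.12%) against 14.2%. Median GC content was 64.3% for members and 51.7% for all. The 33469 promoters were not limited to the genes tested here, while all members passed the expression filter, so the 2 sets are unlike. These shares describe the letters of the window only. Of the genes with a full CRE, Syn1 was lower after withdrawal in control cultures, and Vamp1 was called in neither withdrawal comparison with all libraries.

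By the median of the 12 libraries, 9 members were at 100 FPKM or above, 40 between 10 and 100 and 18 below 10. Vamp2, which encodes the main synaptobrevin of the forebrain, was the highest at a median of 529 FPKM. It was followed by the dense-core vesicle synaptotagmin Syt4 (369), synaptophysin Syp (246), Snap25 (234) and Syt11 (231). These last 3 medians lay within the spread of the libraries, since each gene varied by more than 1.5 times between libraries. The lowest were Stx19 at a median of 1.24 FPKM, which the deposited table places on another chromosome than RefSeq does, so that the locus behind its values is uncertain, Syt6 at 1.88 and the myobrevin gene Vamp5 at 2.71. Per transcript length, the calcium sensor Syt1 stood at a median of 106 FPKM, above Syt7 at 28.9 and Syt9 at 5.46.

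After TTX was withdrawn, every member called with all libraries was lower, and all calls but 1 were of the release machinery. In control cultures 14 of the 67 members fell and 0 rose, where 11.1% of all genes tested were called lower and 6.61% higher. In knockdown cultures 10 members fell and 0 rose, against 9.22% and 4.95% of all genes. The table holds no gene under 1 FPKM in Ctrl_TTX replicate 1, so a gene of these families silent there could not be counted as rising. All 14 calls in control cultures were among the 47 release genes, whose median log2 change was -0.81; the 20 SNAREs of other membranes had a median of 0.04 and 0 calls. In knockdown cultures 9 release genes and 1 other SNARE were called lower, with medians of -0.41 and 0.10. Over all 67 members the median log2 change was -0.30 in control and -0.17 in knockdown cultures, against -0.01 and 0.00073 over all genes tested.

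With all libraries, members lower in both comparisons numbered 6: Cplx2, Doc2b, Rims1, Syt6, Syt7 and Syt9. They made up 42.9% of the control list and 60.0% of the knockdown list. The share of all genes lower in both was not counted in any setting. The log2 changes of the 2 comparisons correlated at Pearson r = 0.71 over members and 0.65 over all genes tested. These 2 comparisons share no library. The calls in control cultures rested on the spread estimated over all 12 libraries, since a fit of only the 6 libraries compared called 0 members and 0% of all genes lower. Leaving out Ctrl_TTXwd replicate 3 alone left 9 of the 14 calls. In knockdown cultures single libraries decided more: 1 member was lower without KD_TTX replicate 2 or without KD_TTXwd replicate 1, 3 without KD_TTX replicate 1 or KD_TTXwd replicate 2, 6 without KD_TTXwd replicate 3, and 16 without Ctrl_TTX replicate 1 or Ctrl_TTXwd replicate 3. Cplx2 was lower under each of these. After quantile normalization the split was 13 lower and 2 higher (Stx8 and Vamp3) in control cultures, against 9.63% and 8.57% of all genes. In knockdown cultures it was 8 lower and 1 higher (Stx19), against 8.72% and 8.86%. Without the 2 libraries that stand apart, 16 members were lower and 1 higher in control cultures, against 10% (1071 of 10689) and 5.09% of all genes, and 10 of the 14 calls remained. The 6 lower calls added there were Rims3, Rims4, Syt3, Syngr1, Unc13a and Stx6. In knockdown cultures, to which neither library belongs, 22 were then lower and 6 higher, against 19.4% and 13.6%, and all 10 calls remained. The 12 added there were Doc2a, Rims3, Rims4, Unc13a, Bsn, Cplx1, Stx1a, Syt11, Syn3, Syp, Snap91 and Stx6. In that setting 14 members were lower in both cultures: the 6 found with all libraries and Doc2a, Rims3, Rims4, Syt3, Bsn, Syngr1, Unc13a and Stx6. The 1 higher in control cultures there was Vamp3. The 6 higher in knockdown cultures were Sv2b, Vamp1 and Stxbp3, counted with the release genes, and the other SNAREs Snap23, Vamp3 and Stx19.

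**Figure D1:**
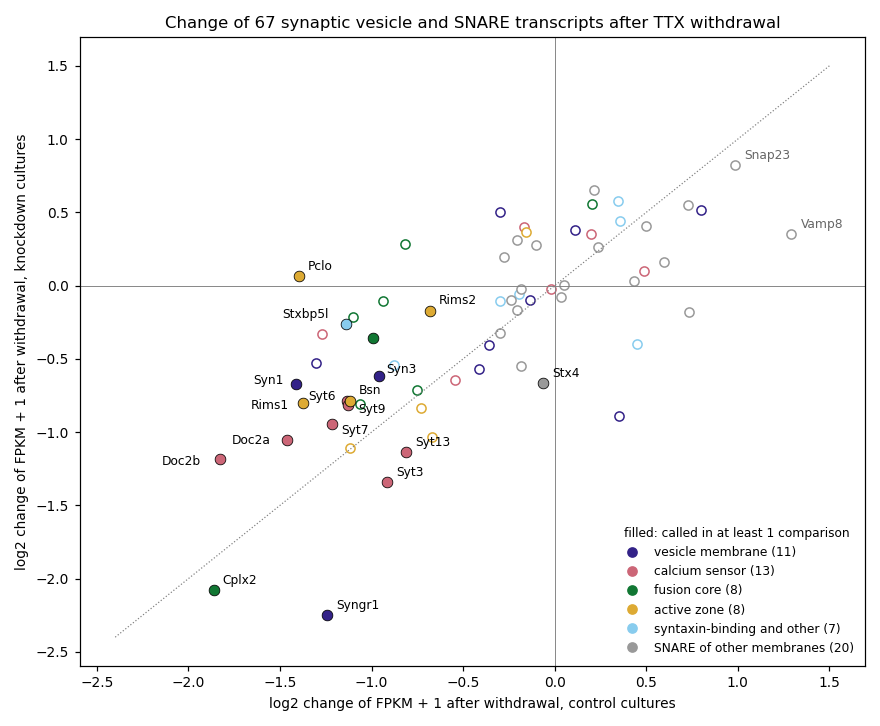
Log2 change of FPKM + 1 after TTX withdrawal for each of the 67 members, in control cultures (horizontal axis) against knockdown cultures (vertical axis). Colour gives the role, filled points were called by limma in at least 1 of the comparisons, and the dotted line marks equal change; Cplx2 at -1.86 and -2.08 and most calcium sensors lie in the lower left, and the grey points, the SNAREs of other membranes, have medians of 0.04 and 0.10, with Snap23 at 0.98 and 0.82.

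Among vesicle membrane proteins, Syn1 and Syn3 fell in control and Syngr1 in knockdown cultures. The 3 synapsins, which cluster vesicles into a reserve pool, were all lower in every withdrawal library than in any TTX library of the same virus. With all libraries only Syn1 and Syn3 were called, in control cultures. The share of all genes with groups separate in this way was not counted. Syn1 was at 345, 126 and 129 FPKM in Ctrl_TTX and 73.4, 98.0 and 40.2 in Ctrl_TTXwd. The groups did not overlap, but the TTX values held 1 library far above the others. Syn1 fell in control cultures (log2 change -1.41, SE 0.42, limma adjusted p = 0.0399), and the call was lost without both libraries that stand apart (adjusted p = 0.207, with 0.0146 to 0.207 over all settings). In knockdown cultures Syn1 was at 167, 104 and 82.7 and then 77.6, 76.4 and 59.0 FPKM, without a call (adjusted p = 0.305 by limma). Syn1 shares its locus with Timp1 on the opposite strand, and how strand was used in counting is not given in the sources used here. Timp1, a protease inhibitor gene, was itself highest of the 12 libraries in Ctrl_TTXwd replicate 3, at 352 FPKM.

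Syn3 also fell in control cultures, from 21.3, 20.2 and 18.7 to 12.6, 12.3 and 5.99 FPKM (log2 change -0.96, SE 0.26, limma adjusted p = 0.0274). Its groups were clear of each other, yet leaving out any 1 Ctrl_TTX library or Ctrl_TTXwd replicate 3 ended the call (adjusted p from 0.0508 to 0.0686). Syn2 was at 102, 76.9 and 86.7 FPKM in Ctrl_TTX and 43.7, 64.9 and 14.9 in Ctrl_TTXwd (log2 change -1.31, SE 0.42, limma adjusted p = 0.0513), and at 96.3, 68.2 and 62.4, then 54.9, 62.1 and 39.4 in the knockdown groups. Its adjusted p in control cultures lay just above the threshold. Syn2 and Syn3 overlap Timp4 and Timp3, on the opposite strand as well.

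Synaptogyrin Syngr1, a tetraspan vesicle protein, showed the largest change of any member in knockdown cultures. It was at 60.1, 53.1 and 57.9 FPKM in KD_TTX and 8.11, 13.0 and 13.1 in KD_TTXwd, and so fell (log2 change -2.25, SE 0.52, limma adjusted p = 0.0182). In control cultures it was at 32.1, 63.8 and 69.9 and then 40.4, 34.0 and 6.91 FPKM (log2 change -1.24, SE 0.52, limma adjusted p = 0.117). Here the groups overlapped, with a low TTX library and 1 low withdrawal library. Without those libraries it fell there too (log2 change -0.83, adjusted p = 0.0301 by limma). The call in knockdown cultures was lost in 3 fits without a single library (adjusted p from 0.0598 to 0.0858 by limma). The difference between the 2 responses was not called (limma adjusted p = 0.587).

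Syp and Sv2a were called in neither culture with all libraries. Syp, the most abundant of the role, was at 157, 313 and 323 FPKM in Ctrl_TTX and 246, 315 and 86.2 in Ctrl_TTXwd, and at 298, 247 and 246, then 174, 195 and 162 in the knockdown groups. The control groups overlapped widely, whereas all 3 KD_TTXwd libraries lay below all KD_TTX libraries (limma adjusted p = 0.384, 0.0169 without the 2 libraries that stand apart and 0.0169 to 0.571 over all settings). Sv2a, the binding site of the antiepileptic drug levetiracetam, was at 39.3, 84.2 and 93.1, then 69.2, 95.7 and 35.1 FPKM in the control groups and 74.6, 89.4 and 111, then 75.3, 106 and 75.3 in the knockdown groups. Its direction in control cultures changed with single libraries, from -0.52 to 0.26 on the log2 scale. With all libraries, the other members of the role, Sv2b, Sv2c, Syngr2, Syngr3 and Synpr, were not called. Their log2 changes ran from -0.36 to 0.80 in control and from -0.89 to 0.51 in knockdown cultures. Without the 2 libraries that stand apart, Sv2b was called higher in knockdown cultures (log2 change 0.50, limma adjusted p = 0.0324).

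Of the calcium sensors, 5 of 13 were lower in control and 6 of 13 in knockdown cultures. Doc2b and Doc2a encode soluble sensors of high calcium affinity, linked to spontaneous and delayed release. Doc2b was at 40.2, 23.3 and 22.8 FPKM in Ctrl_TTX and 10.4, 8.59 and 3.84 in Ctrl_TTXwd, and at 25.5, 15.6 and 12.0, then 7.55, 5.50 and 7.74 in the knockdown groups. Every withdrawal library lay below every TTX library, and Doc2b fell in control (log2 change -1.83, SE 0.35, limma adjusted p = 0.00836) and in knockdown cultures (log2 change -1.19, SE 0.35, limma adjusted p = 0.0467). In knockdown cultures the call was kept in 12 of 21 other settings (adjusted p from 0.00526 to 0.158). Doc2a was at 7.38, 15.04 and 15.5, then 5.02, 5.38 and 1.76 FPKM in the control groups (log2 change -1.46, SE 0.35, limma adjusted p = 0.0189). In knockdown cultures it was at 15.1, 12.2 and 14.5, then 4.73, 8.65 and 5.66 FPKM, with groups that did not overlap and an adjusted p of 0.0677 by limma.

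Syt7, the slow sensor of asynchronous release and facilitation, was lower in both cultures (chromosome 1, 233382665 to 233440845, plus strand in the deposited table, whose genome build is rn5 per the submitters' processing notes). It was at 42.3, 51.9 and 53.5 FPKM in Ctrl_TTX and 25.2, 23.9 and 14.3 in Ctrl_TTXwd, and at 46.3, 38.2 and 32.5, then 20.2, 19.5 and 18.9 in the knockdown groups. All 6 withdrawal libraries lay below all 6 TTX libraries. Syt7 fell in control (log2 change -1.21, SE 0.21, limma adjusted p = 0.00576) and in knockdown cultures (log2 change -0.95, SE 0.21, limma adjusted p = 0.0160), and in control cultures it did so without both libraries that stand apart as well (log2 change -1.07). Syt9, a relative of the fast sensor Syt1 (chromosome 1, 178591097 to 178768239, plus strand), was at 11.4, 9.18 and 8.35, then 3.49, 3.97 and 4.06 FPKM in the control groups and 6.57, 7.51 and 8.19, then 4.02, 3.04 and 4.36 in the knockdown groups. Again no withdrawal library reached any TTX library (limma adjusted p = 0.00405 in control and 0.0130 in knockdown cultures). In knockdown cultures the Syt7 call was lost in 4 fits without a single library (adjusted p from 0.0503 to 0.06335 by limma). The Syt9 call there was lost in 3 (adjusted p from 0.053 to 0.0589 by limma).

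Syt6 (chromosome 2, 225492366 to 225547221, plus strand), of the Syt3 subfamily, was the called member with the lowest level. It was at 3.54, 3.27 and 3.99 FPKM in Ctrl_TTX, 2.45, 2.57 and 2.98 in KD_TTX, 1.19, 0.907 and 1.18 in Ctrl_TTXwd and 0.812, 1.31 and 1.27 in KD_TTXwd. Values near 1 FPKM leave its fold uncertain, but the TTX and withdrawal libraries were separate (log2 change -1.14, limma adjusted p = 0.00374 in control; -0.79 and 0.0131 in knockdown cultures). The call in knockdown cultures was lost in 2 fits without a single library (adjusted p from 0.0540 to 0.0726 by limma). For Syt6, Ctrl_TTX replicate 1 was not the highest nor Ctrl_TTXwd replicate 3 the lowest of its group.

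With all libraries, Syt3 and Syt13 were called in knockdown but not in control cultures. Syt3 was at 10.7, 16.3 and 15.7 FPKM in KD_TTX and 4.37, 4.77 and 5.71 in KD_TTXwd (log2 change -1.34, SE 0.38, limma adjusted p = 0.0382), against 6.20, 14.6 and 15.8, then 7.71, 7.78 and 2.65 in the control groups, which overlapped. Leaving out any 1 KD_TTX or KD_TTXwd library ended the Syt3 call in knockdown cultures (adjusted p from 0.0629 to 0.136 by limma). Without the 2 libraries that stand apart Syt3 fell in control cultures as well (log2 change -0.89, adjusted p = 0.0211 by limma). Syt13, which lacks the calcium-binding residues, was at 10.6, 6.57 and 5.74, then 2.95, 2.88 and 2.64 FPKM (log2 change -1.14, SE 0.28, limma adjusted p = 0.0227), against 7.98, 8.38 and 7.58, then 5.86, 5.11 and 2.2 in the control groups, which did not overlap (adjusted p = 0.0659 by limma). The Syt13 call in knockdown cultures was lost in 5 fits without a single library (adjusted p from 0.0622 to 0.083 by limma). The difference between the responses was tested and was called for neither Syt3 nor Syt13.

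Syt1, the sensor of fast synchronous release, was not called. It was at 338, 133 and 134 FPKM in Ctrl_TTX and 93.0, 127 and 35.1 in Ctrl_TTXwd (log2 change -1.27, SE 0.47, limma adjusted p = 0.0791), and at 158, 106 and 94.4, then 105, 105 and 71.1 in the knockdown groups. The control groups came within 127 and 133 FPKM of each other, with 1 high TTX and 1 low withdrawal library, and without those libraries the log2 change was -0.29 (adjusted p = 0.516, with 0.0303 to 0.516 over all settings). Syt4, the most abundant synaptotagmin, was at 363, 368 and 421, then 341, 573 and 201 FPKM in the control groups and 254, 343 and 418, then 509.9, 443 and 371 in the knockdown groups. Its groups overlapped in both cultures. Of the other members, Syt11 was lower in all withdrawal libraries of each virus without a call (adjusted p = 0.112 and 0.0771 by limma), and Syt5, Syt12 and Syt17 lay between -0.02 and 0.49 on the log2 scale in control cultures.

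**Figure D2:**
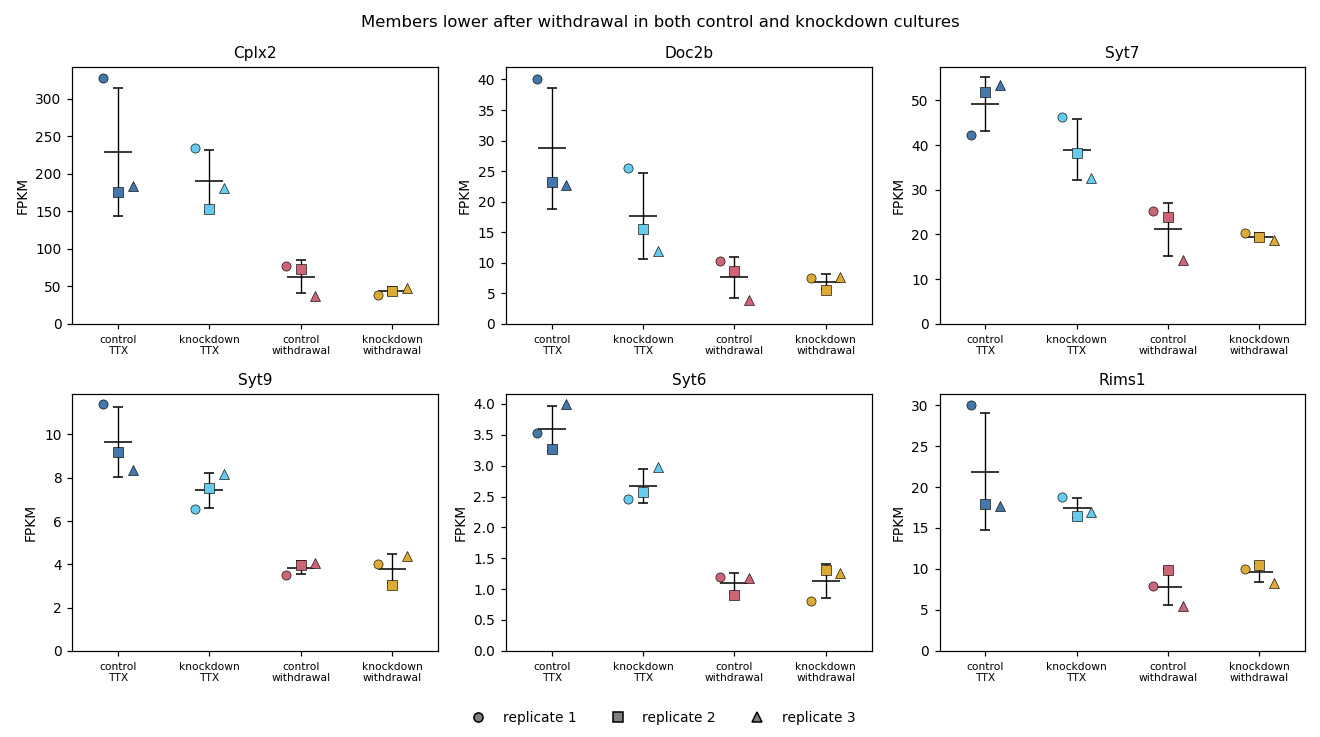
FPKM of the 6 members lower after withdrawal in both control and knockdown cultures, by group; points are libraries, with the symbol giving the replicate, and bars are the mean and SD of 3. For each gene the 6 withdrawal libraries lie below the 6 TTX libraries, as for Syt7 with 14.3 to 25.2 against 32.5 to 53.5 FPKM.

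In the fusion core, Cplx2 fell in both control and knockdown cultures. Complexins clamp the assembled SNARE complex and promote its triggered fusion. Cplx2 (chromosome 17, 12883634 to 12892106, minus strand) was at 327, 176 and 184 FPKM in Ctrl_TTX, 235, 154 and 182 in KD_TTX, 77.0, 73.6 and 37.4 in Ctrl_TTXwd and 38.7, 44.4 and 48.3 in KD_TTXwd. Even the highest withdrawal library was below the lowest TTX library. Cplx2 fell in control (log2 change -1.86, SE 0.31, limma adjusted p = 0.00477) and in knockdown cultures (log2 change -2.08, SE 0.31, limma adjusted p = 0.00396), with -1.25 in control cultures without both libraries that stand apart (adjusted p = 0.00514, with 0.00445 to 0.0730 over all settings). Cplx1 was at 63.4, 77.2 and 89.5, then 42.4, 63.0 and 16.9 FPKM in the control groups and 89.8, 70.0 and 79.9, then 34.9, 70.3 and 36.7 in the knockdown groups, and was called in neither (adjusted p = 0.0868 and 0.195 by limma).

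The plasma membrane SNARE Stx1a was at 54.3, 74.5 and 82.0, then 51.3, 72.9 and 17.8 FPKM in the control groups, which overlapped, and at 64.7, 63.2 and 81.4, then 33.6, 56.6 and 38.8 in the knockdown groups, which did not (adjusted p = 0.265 by limma).

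In the most abundant core transcripts the 2 libraries that stand apart were the highest and the lowest. Vamp2 was at 2043, 532 and 513 FPKM in Ctrl_TTX and 401, 527 and 264 in Ctrl_TTXwd (log2 change -1.10, SE 0.46, limma adjusted p = 0.115), and at 759, 607 and 525, then 560.4, 572 and 484 in the knockdown groups. Snap25 was at 1016, 213 and 236, then 206, 303 and 149 FPKM in the control groups (log2 change -0.82, SE 0.49, limma adjusted p = 0.258), and at 238, 197 and 197, then 282, 255 and 233 in the knockdown groups. For both genes the groups overlapped, and without those 2 libraries the control log2 changes were -0.18 for Vamp2 and 0.15 for Snap25. Vamp1, the synaptobrevin more typical of hindbrain and spinal cord, was at 12.4, 8.92 and 8.73 FPKM in KD_TTX and 13.0, 16.9 and 15.5 in KD_TTXwd (log2 change 0.56, SE 0.20, limma adjusted p = 0.0800). Without the 2 libraries that stand apart, Vamp1 was called higher in knockdown cultures (log2 change 0.56, limma adjusted p = 0.0240). In control cultures Vamp1 was at 10.01, 6.55 and 7.08, then 7.91, 9.36 and 10.1 FPKM.

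**Figure D3:**
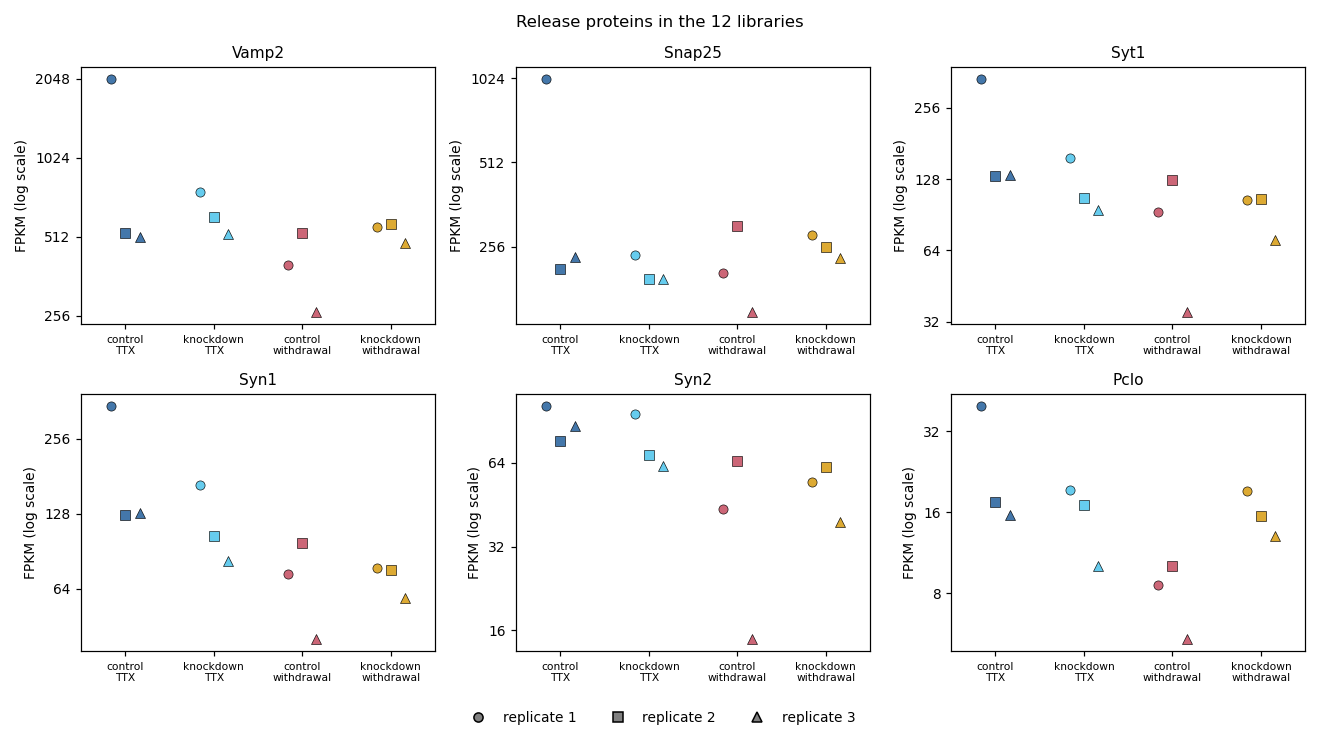
FPKM of 6 release genes in the 12 libraries, on a log axis with base 2; each point is 1 library and the symbol gives the replicate. Ctrl_TTX replicate 1 is the highest for each of the 6 genes, at 2043 FPKM for Vamp2, and Ctrl_TTXwd replicate 3 the lowest, at 264 FPKM.

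All 8 active zone genes had a log2 change below 0 in control cultures, and 4 of them fell. Rims1 (chromosome 9, 27284844 to 27813498, minus strand), which encodes the RIM scaffold that recruits calcium channels and primes vesicles, was at 30.1, 17.9 and 17.7 FPKM in Ctrl_TTX and 7.90, 9.91 and 5.48 in Ctrl_TTXwd. In the knockdown groups it was at 18.8, 16.5 and 16.9, then 10.04, 10.5 and 8.25 FPKM. The 6 withdrawal libraries were all below the 6 TTX libraries, and Rims1 fell in control (log2 change -1.38, SE 0.24, limma adjusted p = 0.00550) and in knockdown cultures (log2 change -0.80, SE 0.24, limma adjusted p = 0.0432). The knockdown call was kept in 11 of 21 other settings (adjusted p from 0.00191 to 0.123). Rims2 was at 19.3, 15.2 and 14.8, then 9.86, 12.3 and 7.67 FPKM in the control groups (log2 change -0.68, SE 0.17, limma adjusted p = 0.0238), and at 15.1, 15.6 and 14.0, then 12.8, 13.1 and 13.4 in the knockdown groups, which lay close together without overlap (adjusted p = 0.550 by limma).

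The giant scaffolds bassoon and piccolo both fell in control cultures, and neither was called in knockdown cultures. Bsn was at 20.9, 24.6 and 23.2 FPKM in Ctrl_TTX and 13.4, 12.4 and 5.88 in Ctrl_TTXwd (log2 change -1.12, SE 0.25, limma adjusted p = 0.0134), and at 25.5, 23.1 and 19.9, then 11.8, 14.5 and 11.9 in the knockdown groups. Its TTX and withdrawal libraries were separate in both cultures, and in knockdown cultures the adjusted p was 0.0539 by limma (from 0.00190 to 0.174 over all settings). Pclo was at 39.6, 17.5 and 15.7, then 8.63, 10.1 and 5.41 FPKM in the control groups (log2 change -1.40, SE 0.35, limma adjusted p = 0.0224), and at 19.4, 17.1 and 10.1, then 19.2, 15.5 and 13.1 in the knockdown groups. The control groups were separate and the knockdown groups overlapped; without both libraries that stand apart the control call was lost (adjusted p = 0.0898). Unc13a, whose Munc13 protein primes vesicles, was at 22.9, 39.2 and 38.1, then 22.8, 26.1 and 11.8 FPKM in the control groups and 30.8, 38.8 and 31.3, then 14.6, 19.6 and 21.6 in the knockdown groups (adjusted p = 0.104 and 0.0780 by limma). The short RIM genes Rims3 and Rims4 had log2 changes of -1.12 and -0.67 in control and -1.11 and -1.03 in knockdown cultures, without a call. Without the 2 libraries that stand apart Unc13a, Rims3 and Rims4 were all called lower in both cultures, Unc13a with log2 changes of -0.64 and -0.83 (adjusted p = 0.0499 and 0.00376 by limma, with 0.0421 to 0.326 and 0.00376 to 0.259 over all settings). Unc13b was not called in either, at -0.16 and 0.36.

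Of the 7 syntaxin-binding and other proteins, only Stxbp5l was called with all libraries. It encodes a tomosyn, which ties up syntaxin and holds back SNARE assembly. Stxbp5l was at 12.2, 14.0 and 17.7 FPKM in Ctrl_TTX and 6.05, 7.62 and 4.70 in Ctrl_TTXwd (log2 change -1.14, SE 0.21, limma adjusted p = 0.00747), and at 9.66, 10.9 and 9.86, then 10.8, 6.68 and 7.76 in the knockdown groups, which overlapped. Its paralog Stxbp5 ranged from 24.5 to 34.8 FPKM over all 12 libraries and was not called. The clathrin adaptor Snap91 was at 141, 102 and 111, then 75.1, 91.7 and 36.4 FPKM in the control groups (adjusted p = 0.0534 by limma). Stxbp2 and Stxbp3, whose syntaxin-binding proteins are used mainly outside neurons, were highest in Ctrl_TTXwd replicate 3, at 13.9 and 27.1 FPKM. Without the 2 libraries that stand apart, Stxbp3 was called higher in knockdown cultures (log2 change 0.58, limma adjusted p = 0.0108). Stxbp4 and Stxbp6 had log2 changes of 0.36 and -0.30 in control cultures.

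Markers of excitatory neurons were lower in the same comparisons. Of 10 glutamatergic markers, 6 were lower in control and 2 in knockdown cultures, with medians of -1.26 and -0.75 on the log2 scale. Over all genes tested, 11.1% and 9.22% were lower. Of 10 GABAergic markers in the table, 1 rose and 2 fell in each. Within the glutamatergic list, the transcription factor Neurod6 was at 443, 366 and 397 FPKM in Ctrl_TTX and 138, 261 and 52.9 in Ctrl_TTXwd, and the vesicular glutamate transporter Slc17a7 at 83.6, 131 and 131, then 100.1, 129 and 16.4. Slc17a7 was called in neither culture (adjusted p = 0.310 and 0.122 by limma). Neurod6 was called in control cultures only, with a log2 change of -0.09 in knockdown cultures in the authors' deposited table. Whether the makeup of the cultures had a part in the lower release transcripts was not tested.

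The 20 SNAREs of other membranes included 1 gene called with all libraries. Stx4, a plasma membrane syntaxin of most cell types, was at 43.0, 45.0 and 40.4 FPKM in KD_TTX and 24.7, 23.8 and 32.1 in KD_TTXwd, and fell (log2 change -0.66, SE 0.17, limma adjusted p = 0.0259). The call was lost in 4 fits without a single library (adjusted p from 0.0718 to 0.112 by limma). In control cultures Stx4 was at 40.2, 38.0 and 36.6, then 34.1, 31.0 and 46.0 FPKM, with overlapping groups. The other plasma membrane syntaxins Stx2, Stx3 and Stx19, the Golgi and trans-Golgi SNAREs Stx5, Stx6, Stx16 and Vamp4, and the endoplasmic reticulum and autophagosome syntaxins Stx18 and Stx17 were not called with all libraries. Their log2 changes ran from -0.30 to 0.44 in control and from -0.32 to 0.65 in knockdown cultures. The endosomal syntaxin Stx8 was above its TTX libraries in all withdrawal libraries of each virus, without a call (18.1, 19.5 and 20.9 then 24.1, 29.2 and 31.0 FPKM in control cultures, adjusted p = 0.0654 by limma). Stx12, Stx7 and Vamp7, also endosomal, had log2 changes of -0.10, -0.19 and 0.04 in control cultures, and Snap29, Snap47 and Vamp5 of -0.24, 0.60 and 0.73.

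Snap23, Vamp3 and Vamp8 are the widely expressed counterparts of Snap25 and Vamp2. Vamp8 was at 52.9, 38.1 and 23.6 FPKM in Ctrl_TTX and 89.6, 35.2 and 231 in Ctrl_TTXwd (log2 change 1.29, SE 0.63, limma adjusted p = 0.169), and at 42.2, 49.3 and 34.5, then 72.0, 22.8 and 91.6 in the knockdown groups. The summed microglial markers in the same order of libraries were 605, 414 and 204, 771, 102 and 1770.0, 632, 512 and 177 and 394, 42.0 and 538 FPKM, and the same withdrawal libraries were high and low for both. Snap23 was at 10.3, 5.49 and 6.45, then 12.4, 9.02 and 30.6 FPKM in the control groups (log2 change 0.98, SE 0.37, limma adjusted p = 0.0872), and at 7.64, 8.40 and 7.69, then 17.6, 10.6 and 17.0 in the knockdown groups, which did not overlap (log2 change 0.82, SE 0.37, limma adjusted p = 0.158). Vamp3 was at 103, 57.3 and 61.4, then 101, 93.6 and 176 FPKM in the control groups, and at 69.9, 70.5 and 80.8, then 109, 102 and 113 in the knockdown groups. Without both libraries that stand apart, Vamp3 rose in both cultures (log2 change 0.70 in control and 0.55 in knockdown) and Snap23 in knockdown cultures (0.82). The part of microglia in these values was not tested.

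**Figure D4:**
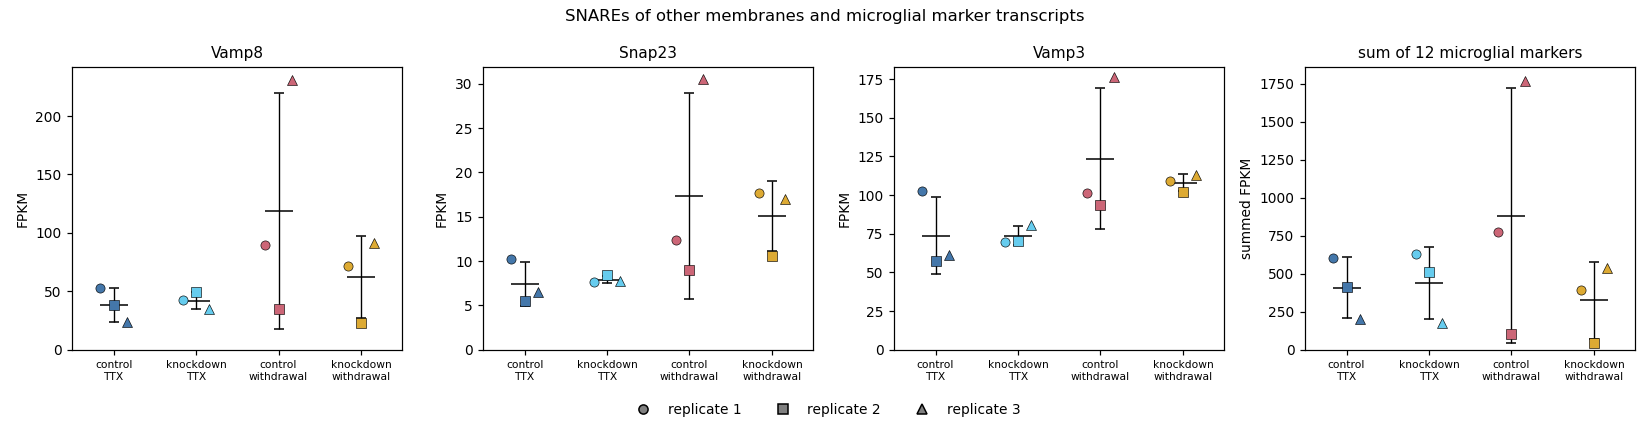
FPKM of Vamp8, Snap23 and Vamp3 and the summed FPKM of 12 microglial markers, by group; points are libraries, with the symbol giving the replicate, and bars are the mean and SD of 3. Ctrl_TTXwd replicate 3 is the highest in all panels, at 231 FPKM for Vamp8 and 1770.0 FPKM for the markers.

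The difference between the withdrawal responses of knockdown and control cultures was called for 0 members and 0.0% of all genes by limma. At an unadjusted p under 0.05 there were 4 members and 1050 of 10689 genes. The smallest p values belonged to Pclo, whose knockdown response was higher by 1.46 on the log2 scale (SE 0.50), Stxbp5l with 0.88 (SE 0.30) and Stx4 with -0.60 (SE 0.24). Each had an adjusted p of 0.492 by limma. The 8 members called in control cultures only and the 4 called in knockdown cultures only are therefore not shown to respond differently.

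In TTX, knockdown of Grin3a was not seen to change any member. By limma 0 members and 0.0% of all genes were called, with 2 members, Syt12 and Stxbp5l, and 412 genes at an unadjusted p under 0.05. Grin3a itself was among the genes not called, although its mean FPKM in KD_TTX was 33.6% of that in Ctrl_TTX. The fit thus missed a change of that size, and 0 calls do not show that the members were unchanged. The authors' deposited table called 2 members lower, Snap25 (log2 -1.21, q = 0.00447) and Syt1 (-0.75, q = 0.0252), where 1.83% of all genes were lower, and 0 members higher, where 0.336% were higher. Snap25 was at 1016, 213 and 236 FPKM in Ctrl_TTX and 238, 197 and 197 in KD_TTX, and Syt1 at 338, 133 and 134, then 158, 106 and 94.4. For both genes the difference lay mostly in Ctrl_TTX replicate 1, the remaining libraries overlapping. Without both libraries that stand apart the log2 differences by limma were -0.10 for Snap25 and -0.19 for Syt1.

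After withdrawal, knockdown again gave 0 called members by limma, against 0.00936% of all genes, with 6 members and 1276 genes at an unadjusted p under 0.05. The authors' deposited table called 3 members higher, Pclo (log2 0.98, q = 0.00102), Sv2b (0.94, q = 0.00184) and Vamp1 (0.73, q = 0.0441), where 1.61% of all genes were higher. It called Syngr1 lower (-1.25, q = 0.00506), where 5.97% were lower. Sv2b, a transporter-like glycoprotein of the vesicle, was at 27.2, 37.0 and 19.9 FPKM in Ctrl_TTXwd and 58.7, 53.2 and 49.3 in KD_TTXwd (log2 change 0.95, SE 0.24, limma adjusted p = 0.263). Every knockdown library was above every control library, and above all 6 TTX libraries too, which lay between 28.1 and 45.2 FPKM.

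Vamp1 was at 7.91, 9.36 and 10.1 FPKM in Ctrl_TTXwd and 13.0, 16.9 and 15.5 in KD_TTXwd (log2 change 0.67, SE 0.20, limma adjusted p = 0.302), again with separate groups. Pclo was at 8.63, 10.1 and 5.41, then 19.2, 15.5 and 13.1 FPKM (log2 change 0.92, SE 0.35, limma adjusted p = 0.360), separate as well. Syngr1 was at 40.4, 34.0 and 6.91, then 8.11, 13.0 and 13.1 FPKM (log2 change -0.89, SE 0.52, limma adjusted p = 0.510), where the third control library lay below all knockdown libraries. Without the 2 libraries that stand apart, limma called 4 members between the withdrawal groups, against 4.94% of all genes: Syngr1 (-1.64, adjusted p = 0.0131) and Cplx2 (-0.77, adjusted p = 0.0449) lower, and Sv2b (0.74, adjusted p = 0.0460) and Vamp1 (0.74, adjusted p = 0.0481) higher with knockdown. Over all settings the adjusted p of Sv2b ran from 0.0460 to 0.781, of Vamp1 from 0.0481 to 0.868 and of Syngr1 from 0.0131 to 0.929.

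**Figure D5:**
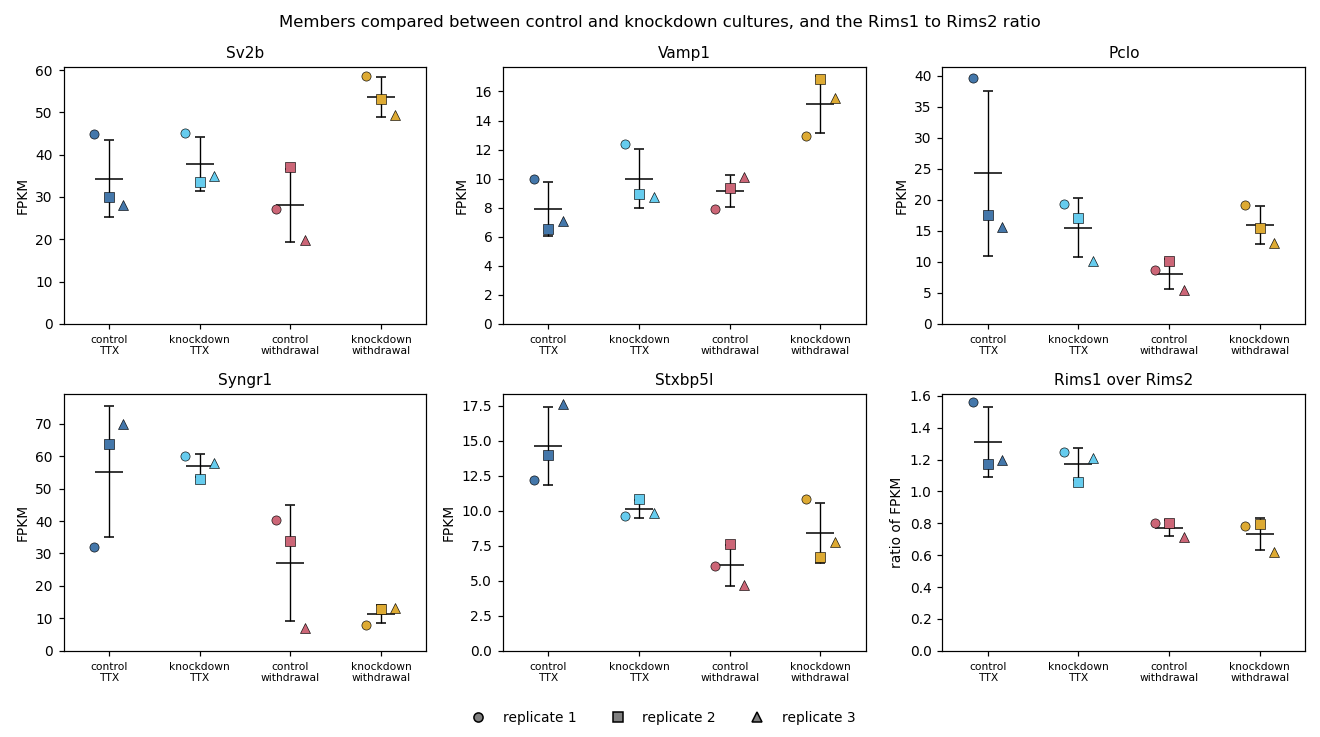
FPKM of 5 members by group, and the ratio of Rims1 to Rims2 FPKM; points are libraries, with the symbol giving the replicate, and bars are the mean and SD of 3. Sv2b, Vamp1 and Pclo are higher in each KD_TTXwd library than in any Ctrl_TTXwd library, and the Rims1 to Rims2 ratio is above 1 in the 6 TTX libraries and below 1 in the 6 withdrawal libraries.

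For withdrawal, the authors' deposited table called more members than limma did. It gave 21 lower in control cultures against 13.9% of all genes, 11 of them also called by limma, and 15 lower in knockdown cultures against 13.6%, 8 of them also by limma. The additional genes in control cultures included Vamp2, Snap25 and Syt1, each of them highest of the 12 libraries in Ctrl_TTX replicate 1. They also included Cplx1, Rims3, Syngr1, Syt3 and Unc13a, for which Ctrl_TTX replicate 1 was the lowest of its group. Without the 2 libraries that stand apart, limma called Rims3, Syngr1, Syt3 and Unc13a lower as well. The deposited table called 4 members higher in control cultures, Snap23, Sv2c, Vamp3 and Vamp8, against 9.03%, and Snap23 alone in knockdown cultures (log2 0.93, q = 0.0105), against 5.41%.

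Genes whose proteins work with the members were also mostly lower where called. Over 6 lists of such genes, chosen with earlier results of these data known, 71 of 82 were tested. In control cultures 18 were lower (25.4%) and 2 higher (2.82%), against 11.1% and 6.61% of all genes tested. In knockdown cultures 15 were lower (21.1%) and 2 higher (2.82%), against 9.22% and 4.95%. The median log2 changes were -0.42 and -0.34. Of 13 active zone partners, 8 were lower in control and 3 in knockdown cultures. Among them Erc2, an active zone scaffold that binds RIM, was at 89.6, 36.9 and 40.1, then 17.0, 24.0 and 8.84 FPKM in the control groups (limma adjusted p = 0.0159), and the liprin gene Ppfia3 at 32.8, 36.9 and 36.0, then 10.7, 17.2 and 14.4 FPKM in the knockdown groups (adjusted p = 0.0114 by limma). Of 23 endocytosis genes tested, 6 were lower in control and 7 in knockdown cultures. The largest called fall was of the dynamin Dnm3 in control cultures (log2 change -1.56) and of the clathrin light chain Cltb in knockdown cultures (-1.27). Dnm3 was not called in knockdown cultures.

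Of 8 genes for Rab3 and its effectors, Rab3a and Rph3a were lower in control cultures (log2 changes -1.34 and -1.10) and Rph3a in knockdown cultures (-1.07). Of 6 tested genes that recycle SNAREs, the chaperone gene Dnajc5 was lower in both (-1.11 and -1.02) and Sgta in knockdown cultures (-1.64). Of 9 other vesicle membrane genes, Prrt2 was lower in control (-1.44) and 0 in knockdown cultures. The 12 transporters and subunits of the vesicle proton pump differed in direction. Atp6v1b2, a pump subunit, was at 77.6, 100.2 and 114 FPKM in Ctrl_TTX and 153, 206 and 222 in Ctrl_TTXwd and rose in both cultures (log2 changes 0.99 and 0.83). Atp6ap2, an accessory subunit, rose likewise (0.90 and 0.72). In knockdown cultures the vesicular GABA transporter Slc32a1 (-1.65) and the pump subunit Atp6v0c (-0.96) fell.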

How the data were processed

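mRNA was made into 12 stranded libraries (4 groups of 3) with a Kapa kit and sequenced as 50 bp single reads, per the labels' protocols. The submitters' processing notes name Trimmomatic, TopHat2, Cufflinks, Cuffdiff and the rat build rn5, with versions, annotation and strand setting not given in the sources used here. The authors deposited FPKM per gene and library, and for 4 comparisons a log2 fold change and q-value per gene from Cuffdiff. Both are quoted only as the authors' deposited table. The FPKM values summed to between 428070 and 517703 per library, and the table holds 10730 genes, none under 1 FPKM in Ctrl_TTX replicate 1, so genes under that level there were not analysed here.

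From these values log2(FPKM + 1) was computed, without further scaling, for 10689 genes with at least 1 FPKM in at least 3 libraries. One linear model of the 4 groups was fitted over all 12 libraries with limma 3.58.1 (R 4.3.3, trended variance), and p-values were adjusted by Benjamini-Hochberg over all genes tested for each of 5 contrasts. The fit was tested on simulated data. In 1 gene the deposited group mean differed from the mean of its libraries by over 1%, and that gene was left out. Alternatives changed the pseudocount to 0.1 and the filter to none or to a mean of at least 5 FPKM, and used median-ratio and quantile normalization, a replicate block, a fit of only the libraries compared, a trend on locus span, each library left out, and 2 libraries left out together. Replicate numbers are shared between groups; deviations from group means correlated at 0.617, 0.436 and 0.667 for same-numbered libraries between the TTX groups, and in the other comparisons at least 1 pair was not over 0.1.

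The members and all gene lists were chosen with earlier results of these data known. Values per library are given for the core release genes, for up to 8 called members per contrast by size of change, for the 3 members with the smallest p of the difference between responses, and for further members chosen after their values were seen. Some members count in the totals and are not reported here by name. The other genes of the pathway are given by counts, with up to 2 named per list. Promoters were matched by symbol to the RefSeq table of GRCr8, and 65 of 67 members had a transcript accession that carries the same symbol there.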

Additional observations from a re-analysis of the deposited data

How the results depend on the processing

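For control cultures, the count of members lower after withdrawal was 13 to 18 against 14 under the other pseudocount, filters, scalings, the replicate block (18), the locus span trend and without both libraries that stand apart (16); it was 0 in a fit of only the libraries compared, where the adjusted p of the 14 genes ran from 0.072 to 0.139, and 9 to 19 with single libraries left out. The count of members higher was 2 after quantile normalization (Stx8 and Vamp3), 1 with the replicate block (Sv2c), 2 with the locus span trend corrected (Stx8 and Sv2c), 1 without both libraries (Vamp3) and 0 to 3 with single libraries left out. Over these settings 3.08% to 8.57% of all genes were called higher. For knockdown cultures, the lower count was 8 to 12 against 10 under the first settings (11 with the replicate block), 19 in a fit of only the libraries compared, 22 without both libraries and 1 to 16 with single libraries left out. The higher count was 1 after quantile normalization, 3 in a fit of only the libraries compared, 6 without both libraries and 0 to 2 with single libraries left out. Knockdown after withdrawal gave 4 called members without both libraries and 0 elsewhere; knockdown in TTX and the difference between responses gave 0 under every setting run, the paired fit included, and a fit of only the libraries compared cannot be made for the difference.

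Signs turned only for members that were not called in the same comparison. Over the fits without a single library, the control log2 change ran from -0.55 to 0.21 for Syt4, from -0.78 to 0.15 for Syp and from -0.52 to 0.26 for Sv2a, each highest without Ctrl_TTXwd replicate 3; Sv2a was at 0.02 and 0.09 without Ctrl_TTX replicates 2 and 3. Without both libraries it was 0.17 for Syt4, 0.15 for Snap25 and 0.12 for Sv2b. In knockdown cultures it ran from -0.26 to 0.046 for Sv2a and from -0.20 to 0.24 for Pclo, which was at -0.07 without KD_TTXwd replicate 1 and at -0.053 with the span trend. The cause of these changes was not tested. The replicate block added lower calls for Syn2, Syt1, Snap91 and Syt13 in control and Bsn in knockdown cultures and ended none. With 3 libraries a group and no read counts, genes near 1 FPKM are the least certain.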

Other observations

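Ratios within a library do not depend on its scaling, and 5 pairs of related members were compared in this way, chosen after their values were seen and so without a test. The ratio of Rims1 to Rims2, the long RIM genes, was 1.56, 1.17 and 1.20 in Ctrl_TTX, 1.25, 1.06 and 1.21 in KD_TTX, 0.801, 0.802 and 0.716 in Ctrl_TTXwd and 0.785, 0.798 and 0.618 in KD_TTXwd. Every TTX library was above 1 and every withdrawal library below 1, the libraries that stand apart included.

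The ratio of Cplx2 to Cplx1 was 5.17, 2.28 and 2.06 in Ctrl_TTX, 2.62, 2.19 and 2.27 in KD_TTX, 1.82, 1.17 and 2.21 in Ctrl_TTXwd and 1.11, 0.632 and 1.32 in KD_TTXwd. The knockdown groups were separate, and in control cultures the third withdrawal library lay among the TTX libraries. The ratio of Vamp2 to Vamp1 was 204, 81.2 and 72.4 in Ctrl_TTX and 50.7, 56.3 and 26.2 in Ctrl_TTXwd, then 61.4, 68.0 and 60.1 in KD_TTX and 43.2, 33.9 and 31.1 in KD_TTXwd, lower after withdrawal in each culture without overlap. The ratio of Syt1, the fast sensor, to Syt7, the slow one, was 3.40, 2.78 and 2.90 in KD_TTX and 5.18, 5.39 and 3.77 in KD_TTXwd, again without overlap but higher after withdrawal. In control cultures it was 7.99, 2.55 and 2.50 and then 3.69, 5.30 and 2.46, with wide overlap. The ratio of Sv2b to Sv2a overlapped between the control groups.

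Members lie in longer loci than most genes, with a median span of 41520 bp against 23798 bp over all genes tested. The annotated spans of 6 members overlap another gene, among them Syn1 with Timp1, Syn2 with Timp4, Syn3 with Timp3 and Doc2a with Ino80e. Timp1 was at 132, 62.2 and 58.4 FPKM in Ctrl_TTX and 205, 100.5 and 352 in Ctrl_TTXwd. Syn1, which it overlaps, was lowest in Ctrl_TTXwd replicate 3, where Timp1 was highest and 33 of the 47 release genes were lowest, and both genes were highest of their Ctrl_TTX libraries in replicate 1.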
